A study of Oryctolagus cuniculus with 18 samples.

Results

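A group of 46 cDNA clones gave a bright signal at similar scores in rabbit 4-cell embryos, early morulae and expanded blastocysts. They make up 46 of the 2052 clones measured. They were selected on measured values: the deposited score of each clone was averaged over the 6 arrays of a stage, and a clone entered when the mean of its 3 stage means was at least 1 and the largest stage mean exceeded the smallest by less than 0.6. The level and the steadiness of these clones over the stages therefore describe how they were chosen and are not findings. The steadiness also belongs to the scaled score. On intensities that were only centred on each array, 44 of the 46 clones were higher in blastocysts than in 4-cell embryos. As detailed further on, this follows in large part from the selection and the scales of the arrays, and is no finding either. The files do not pair clone names with genes, and 0 of the clone names matched the RefSeq gene table, so every clone is given by its name alone and no gene, function or sequence is attached to it.

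The embryos developed in vivo in rabbits (Oryctolagus cuniculus) and carried no treatment or genetic change that the labels mention. They were collected at 32 h (4-cell) and 58 h (early morula, called morula here) after mating, and at 90 h (expanded blastocyst, called blastocyst), apart from 1 blastocyst pool taken at 96 h. There were 3 pools per stage, each made of 16 to 60 embryos of 2 to 7 females, and for 1 pool of 4-cell embryos the labels give no embryo number. The RNA of each pool was amplified both as antisense RNA (aRNA), by in vitro transcription, and by PCR in 2 rounds of 18 cycles, labelled with 33P and hybridised, which gave 18 arrays. A pool is the replicate and its aRNA and PCR arrays are technical measurements of it. P-values for stages rest on the spread between pools. Those for PCR against aRNA, and for its dependence on stage, rest on the spread of the within-pool difference among pools. In pooled embryos, a change in the number of cells and a change in RNA per cell cannot be told apart. A blastocyst pool holds trophectoderm and inner cell mass together, and no marker of either could be checked without gene names.

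As background, the mammalian embryo starts on RNA and protein stored in the egg, degrades most of the stored RNA over its first cleavages, and replaces it with transcripts of its own genome. In the rabbit the main wave of embryonic transcription comes several cleavages after fertilisation, so 4-cell embryos still depend largely on maternal RNA while blastocysts depend on embryonic RNA. Transcripts of general cell upkeep, such as those of translation and the cytoskeleton, are abundant in egg and embryo alike and are often used as references for others.

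The median intensity over clones ran from 28 to 386 per array, and the number of arrays limits the precision. The score of each array was, for clones spotted once, a linear function of the log2 intensity with an SD of 0.94 on every array, so that 1 score unit stood for 0.954 to 1.90 log2 units depending on the array. The array titles carry a code digit (4, 5 or 6) whose meaning is not given, and each code held 1 pool of every stage. The highest intensity recorded was 31939, reached on 3 arrays, and clone lcao0049f12 had this value on the PCR arrays of morula pools 1 and 3, where its level is a lower bound. The level of background was read from spots whose names start with XWAB, as the files mark none: a clone is called above the XWAB level when it exceeded their 95th percentile on that array.

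The 46 clones had mean scores from 1.02 to 4.21. Their median raw intensity was 737, against 82 for all clones and 538.5 for the 175 clones that met the level threshold but varied more among stages. The brightest was lcao0049f12, with stage means of 4.26 (4-cell), 4.45 (morula) and 3.93 (blastocyst). Its similar means hid unlike arrays. On aRNA arrays its scores were 1.04, 2.38 and 2.32 in 4-cell pools 1 to 3, 3.40, 3.87 and 3.57 in the morula pools, and 3.00, 3.17 and 3.15 in the blastocyst pools. On PCR arrays they were 6.88, 6.64 and 6.31 in the 4-cell pools, 4.77, 6.69 and 4.41 in the morula pools, and 3.87, 4.47 and 5.91 in the blastocyst pools. The 4-cell pools were thus the lowest on aRNA arrays and above the blastocyst pools on PCR arrays, where 2 of the 3 morula values are lower bounds, and within every pool the PCR array was the higher one.

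**Figure D1:**
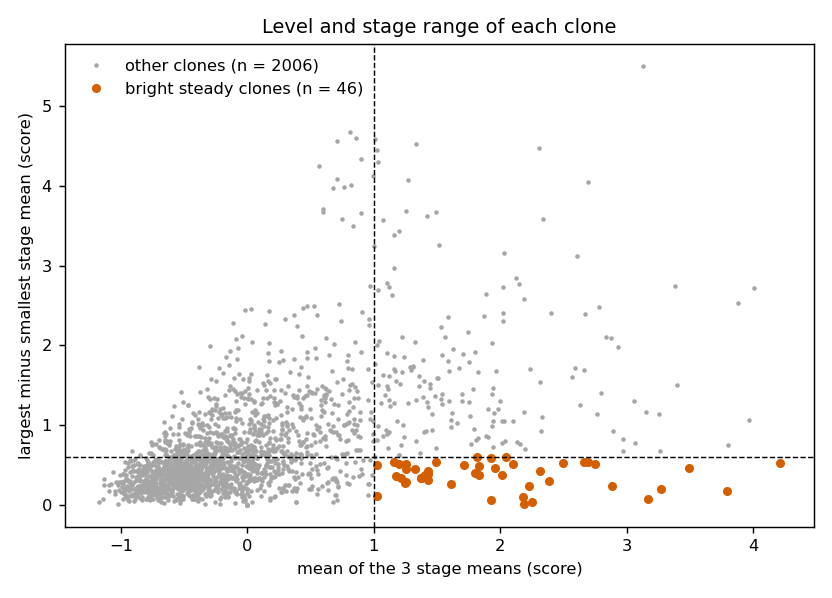
Each point is a clone, with the mean of its 3 stage means (score) on the horizontal axis and the largest minus the smallest stage mean (score) on the vertical axis; dashed lines mark the thresholds of 1 and 0.6. The 46 selected clones fill the lower right corner, with mean scores up to 4.21, while the other 175 clones right of the vertical line lie above the horizontal one.

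The next brightest clone, lcao0040f02, differed less between amplifications. Its fitted PCR minus aRNA difference was 0.71 log2 units (limma adjusted p = 0.0108), with the PCR array higher in 8 of 9 pools. Its aRNA scores were 3.92, 3.24 and 3.66 in 4-cell, 3.20, 4.30 and 3.20 in morula, and 3.17, 3.55 and 3.92 in blastocyst pools 1 to 3. Its PCR scores were 4.12, 3.94 and 4.34, then 3.36, 4.54 and 3.62, and then 3.64, 3.90 and 4.64 in the same order. The 3 stages overlapped on both kinds of array, and this clone never ranked below 30 of the 2052 clones on any of the 18 arrays, the best such rank of all clones. Clone lcao0021g05, with a mean score of 3.50, had a difference of 0.31 log2 units that was not called (limma adjusted p = 0.218). Its aRNA scores ran from 2.79 to 4.16, its PCR scores from 3.20 to 3.84, and its lowest rank was 47. The 4th brightest clone, lcao0036e10 (mean score 3.27), was again unlike on the 2 kinds of array. It scored 1.23, 1.47 and 1.36 on the 4-cell aRNA arrays, 2.28, 1.89 and 2.69 on the morula ones and 2.51, 2.72 and 2.95 on the blastocyst ones. Its PCR scores were 5.38, 3.94 and 5.63, then 4.52, 4.18 and 4.09, and then 3.72, 3.99 and 4.34. All of its 9 PCR scores lay above all of its 9 aRNA scores.

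The smallest range over stage means belonged to lcao0040h08, with 2.19, 2.18 and 2.19 in 4-cell, morula and blastocyst and a difference of 0.00997. This evenness did not extend to single pools. The 4-cell aRNA scores of lcao0040h08 were 0.23, 1.22 and 2.89, while its 4-cell PCR scores were 3.16, 2.72 and 2.89. Its morula scores were 1.07, 1.02 and 1.80 on aRNA and 2.74, 3.50 and 2.99 on PCR arrays, and its blastocyst scores 1.55, 1.59 and 1.79 and then 2.55, 3.09 and 2.59. In 4-cell pool 3 its amplifications were level, and in the other 8 pools the PCR array was higher. The clone with the next smallest range, lcap0025b03 (0.0295), had aRNA scores from 0.45 to 1.57 and PCR scores from 2.75 to 4.78, which did not overlap.

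At the edges of the selection the values were close together. The lowest members by level were lcao0035h06 with a mean score of 1.02 and lcap0006d03 with 1.03, and the nearest clones left out were lcap0015a10 with 0.98 and lcao0020e06 with 0.97. The widest members were lcao0048g08 with a range of 0.597 and lcao0040b06 with 0.599, with lcao0048g08 scoring 0.77 to 2.13 on aRNA and 2.01 to 3.70 on PCR arrays; the nearest clones left out were lcap0025a09 with 0.603 and lcap0017c08 with 0.627. These gaps are small beside the SD among pools of a stage, whose median over the members was 0.315.

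**Figure D2:**
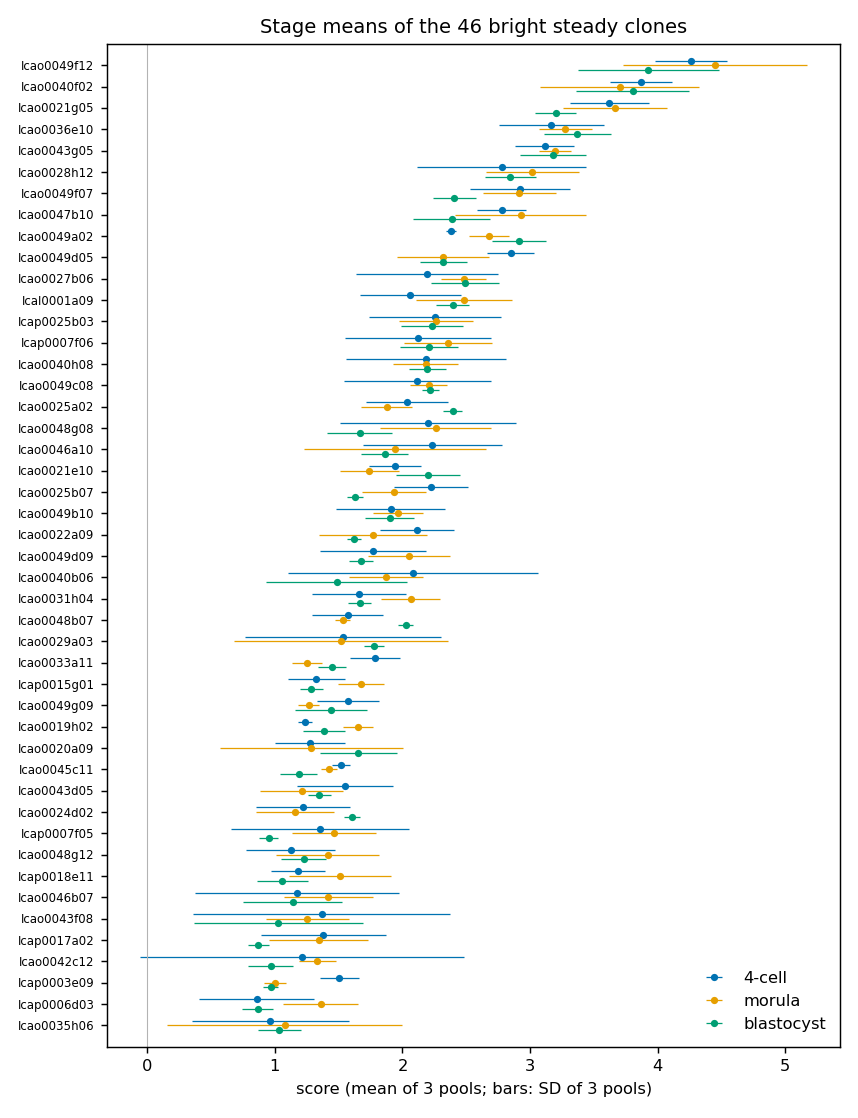
Rows are the 46 clones ordered by mean score, and points give the mean score of the 3 pools of a stage, with bars for the SD of the 3 pools. The stage means of a clone lie within 0.6 by selection, the bars are widest at the 4-cell stage (median SD 0.372) and narrowest at the blastocyst stage (0.172).

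Within the range that the selection allows, the morula held the highest stage mean of 21 clones, the 4-cell stage that of 14 and the blastocyst that of 11. Over all 2052 clones these counts were 631, 869 and 552. The lowest stage mean was the blastocyst's in 21 clones, the 4-cell embryos' in 14 and the morula's in 11, beside 806, 634 and 612 of all clones. The selection used these stage means, so the counts are descriptions. The median member score was 1.93, 1.87 and 1.67 in 4-cell, morula and blastocyst. In limma's F test over stages, 8 of the 46 clones passed an adjusted p of 0.05, beside 34.5% of all clones. The selection used these same stage means, so nothing is read from that count. It was 14 without the pools of array code 4, 0 without those of code 5 and 4 without those of code 6. No share of all clones is given for these settings, so nothing is read from these counts either.

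The spread among pools was no part of the selection. The SD among the 3 pools of a stage, pooled over stages as a root mean square, had a median of 0.315 score units in the 46 clones, 0.302 in the other 175 bright clones and 0.259 in all clones. In 26 of the 46 clones the range over stage means exceeded this SD, and in the other 20 it did not. The range exceeded the SD in 1627 of all 2052 clones and in 175 of the 175 other bright clones. The selection capped the range of the members, so their count follows in part from it. By stage the median SD of the members was 0.372 (4-cell), 0.301 (morula) and 0.172 (blastocyst), beside 0.258, 0.223 and 0.162 for all clones. The 2 clones with the tightest pools were lcao0045c11 (0.100) and lcap0003e09 (0.107). The latter scored 2.34, 1.90 and 2.14 on the 4-cell aRNA arrays and 0.32, 1.24 and 1.09 on the 4-cell PCR arrays, so its pools were close to each other as means of 2 differing arrays. For lcao0045c11 the arrays lay closer, from 0.55 to 1.75 on aRNA and from 1.35 to 2.25 on PCR arrays. Clone lcap0003e09 was above the XWAB level on 8 of 9 aRNA and 0 of 9 PCR arrays.

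The widest spread belonged to lcao0042c12 (0.744) and lcao0043f08 (0.720), and in both it was largest among the 4-cell pools. Clone lcao0042c12 scored -0.34, 2.09 and 0.50 on the 4-cell aRNA arrays and 0.46, 3.05 and 1.52 on the 4-cell PCR arrays, so pool 2 was highest on both. Its morula scores were 0.76, 1.13 and 1.09 on aRNA and 1.60, 1.57 and 1.85 on PCR arrays, and its blastocyst scores 0.46, 0.32 and 0.83 and then 1.35, 1.34 and 1.51. Outside the 4-cell stage the pools of this clone lay closer together on each kind of array. Clone lcao0043f08 scored 2.84, 3.14 and -0.04 on the 4-cell aRNA arrays, 2.03, 2.58 and 1.38 on the morula ones and 2.12, 1.92 and 0.08 on the blastocyst ones, so pool 3 was lowest at each stage. On PCR arrays its scores lay between 0.44 and 1.19 in all 9 pools.

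The comparison of PCR with aRNA arrays of the same pool asks how far the measured level depends on the amplification. The selection averaged both amplifications and did not use their difference, but a clone could reach the level threshold through one of them. With a mean score under 1 on the other, 8 members reached it only through the PCR arrays and 4 only through the aRNA arrays, so a difference of these 12 clones follows in part from the selection. By limma on the 9 differences within pools, 26 of the 46 (56.5%) were higher on PCR arrays at an adjusted p under 0.05, beside 9.26% of all clones and 24% of the other 175 bright clones. Another 6 (13.0%) were lower, beside 9.94% of all clones and 30.9% of the other bright clones, and 14 passed in neither direction. The median difference was 0.76 log2 units over the 46 clones, -0.12 over the other bright clones and -0.01 over all clones. It was 0.63, 0.86 and 0.65 in 4-cell, morula and blastocyst pools. Of the 8 members that reached the threshold only through PCR 7 were among the 26, and of the 4 that did so only through aRNA 3 were among the 6. In the 34 members with a mean score of at least 1 on both kinds of array, 19 (55.9%) were higher and 3 (8.82%) lower, beside 23.5% and 26.5% of the 132 other bright clones of that kind. The members were picked from measured values, so these shares are descriptions.

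In single pools, the PCR array was the higher one in all 9 pools for 16 clones (34.8%, beside 5.26% of all clones) and the lower one in all 9 pools for 2 clones (4.35%, beside 4.78%). Of all members, 22 (47.8%) passed the test with a fitted difference of more than 2-fold, 19 higher on PCR arrays and 3 lower. The share was 5.07% among all clones and 22.3% among the other bright clones. One of the 3 lower, lcap0003e09, was not above the XWAB level on any PCR array. Against the floor set by the dimmest clone spots above that level it was at least 1.84-fold lower. Its mean score was 1.55 on aRNA and 0.77 on PCR arrays. It thus met the level threshold only through the aRNA arrays, and its difference follows in part from the selection. The counts depend on how the arrays are put on a common scale. Normalizing each amplification by itself moved the median of all clones to -0.50 and left 18 members higher (39.1%, beside 2.63% of all clones) and 12 lower (26.1%, beside 58.2%), so that 60% of the members that passed were higher in place of 81.25%; relative to the median of all clones the members' median was then 0.66 log2 units, in place of 0.76. Without the 3 pools of array code 5, 19 members were higher and 3 lower, beside 3.56% and 2.88% of all clones. Without code 6 the counts were 22 and 5, beside 5.26% and 6.43%, and without code 4 26 and 4, beside 9.36% and 9.89%.

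**Figure D3:**
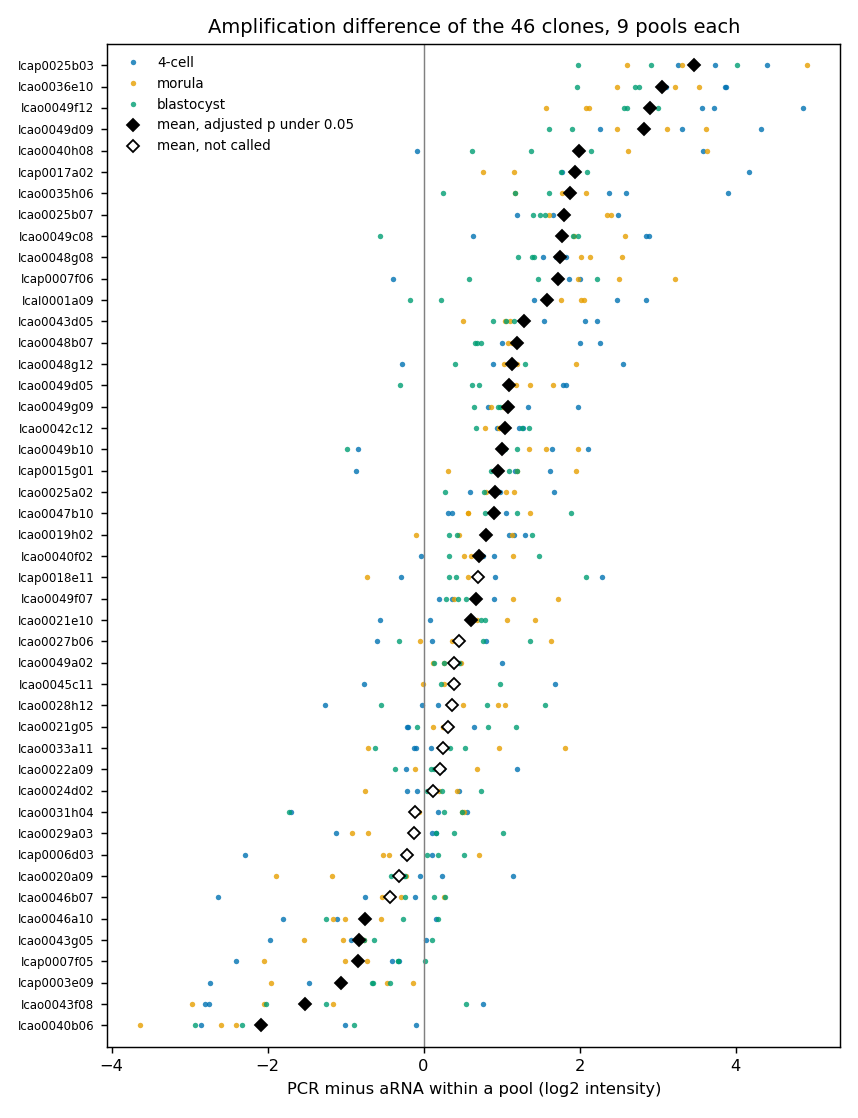
Rows are the 46 clones, small points the PCR minus aRNA difference of each of 9 pools (log2 intensity, quantile normalized over all 18 arrays) coloured by stage, and diamonds the mean, filled where limma's adjusted p was under 0.05. The filled diamonds lie right of 0 for 26 clones and left of 0 for 6.

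The largest fitted rise on PCR arrays among the 46 was that of lcap0025b03. Its PCR minus aRNA differences were 3.73, 3.27 and 4.40 log2 units in the 4-cell pools, 4.92, 2.61 and 3.31 in the morula pools and 4.02, 2.91 and 1.98 in the blastocyst pools. The mean was 3.46 ± 0.26 (SE, limma adjusted p = 5.84e-06), and all 9 pools had the same sign. The clone was above the XWAB level on all 9 PCR and on 5 of 9 aRNA arrays, so its difference may be understated. Its mean score was 0.97 on aRNA and 3.53 on PCR arrays, so it met the level threshold only through the PCR arrays, and its difference follows in part from the selection. The next largest fitted value was that of lcao0036e10 with 3.06 ± 0.16 (SE, limma adjusted p = 5.94e-07), an 8.34-fold difference, higher in 9 of 9 pools and above the XWAB level on all 18 arrays. Its place is not fixed, since the difference of lcao0049f12 was 2.90 with 2 of its 9 PCR arrays at the highest intensity recorded, and is a lower bound. With median centring in place of quantile normalization, the difference was 3.42 for lcao0049f12 and 2.99 for lcao0036e10. The stage means of lcap0025b03 and lcao0036e10 spanned 0.0295 and 0.202.

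On the other side, lcao0040b06 was lower on PCR arrays by a mean of -2.08 ± 0.28 log2 units (SE, limma adjusted p = 0.000386), in 9 of 9 pools. Its differences were -1.01, -2.86 and -0.10 in the 4-cell, -2.60, -3.63 and -2.41 in the morula and -2.93, -2.32 and -0.89 in the blastocyst pools, smallest in pool 3 at each of the 3 stages. Clone lcao0043f08 followed with -1.52 ± 0.37 (SE, limma adjusted p = 0.0134). It was lower in 7 of 9 pools and higher in 4-cell pool 3 (0.76) and blastocyst pool 3 (0.54), the pools in which its aRNA score was near 0. Without the pools of array code 4 or 5 its adjusted p was 0.0507 or 0.118. Its mean score was 1.78 on aRNA and 0.65 on PCR arrays. It thus met the level threshold only through the aRNA arrays, and its difference follows in part from the selection. On PCR arrays these clones were above the XWAB level on 4 and 1 of 9 arrays, so their differences may be understated too.

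A steady mean over both amplifications can come from steadiness on both or from opposite changes. Taken alone, the aRNA arrays gave a range under 0.6 for 26 of the 46 clones (56.5%), beside 52.6% of all clones and 2.86% of the other bright clones. The PCR arrays did so for 30 (65.2%), beside 55.1% and 5.71%. Both did so for 16 clones, beside 810 of all 2052 clones and 0 of the 175 other bright clones. Among the members, aRNA alone did so for 10, PCR alone for 14 and neither for 6. The largest range within an amplification was 1.86, that of lcao0049f12 on PCR arrays. Selection on the joint mean favours changes that cancel, so these counts are a description.

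**Figure D4:**
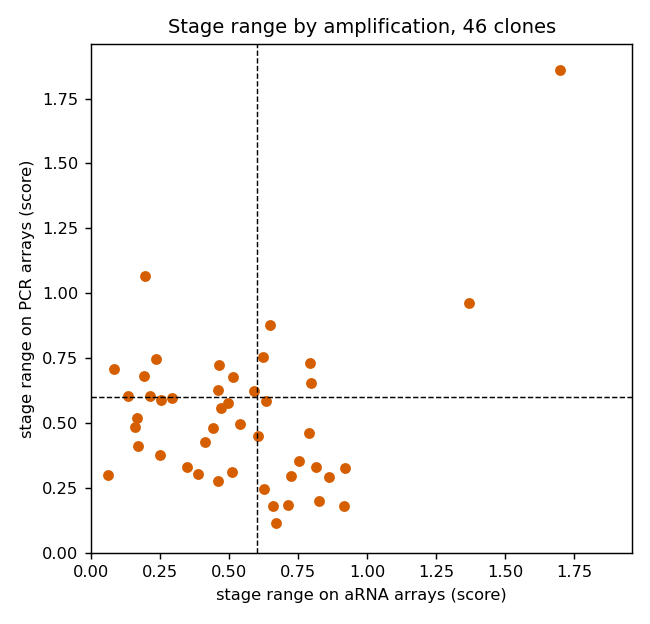
Each point is one of the 46 clones, with its largest minus smallest stage mean on the 9 aRNA arrays (horizontal, score) and on the 9 PCR arrays (vertical, score); dashed lines mark 0.6. The lower left corner holds 16 clones, and the point at the top right is lcao0049f12 with 1.70 and 1.86.

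From 4-cell to blastocyst, 21 of the 46 clones (45.7%) had score changes of opposite sign on the 2 kinds of array, 12 upward on aRNA and downward on PCR and 9 the reverse. The share was 2.86% among the other bright clones and 24.4% among all clones, and the selection itself favours it. Most of these changes were small. In 4 clones both exceeded 0.5, and all 4 went up on aRNA and down on PCR arrays. For lcao0049f12 the aRNA mean went from 1.92 to 3.10 and the PCR mean from 6.61 to 4.75. The means of lcao0036e10 went from 1.35 to 2.72 and from 4.98 to 4.02. Smaller changes were those of lcap0025b03, from 0.58 to 1.16 and from 3.93 to 3.31, and of lcao0035h06, from -0.16 to 0.64 and from 2.09 to 1.43. On the score, the amplifications of these 4 clones thus lay closer to each other in blastocysts than in 4-cell embryos.

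Whether a stage difference depended on the amplification was tested with an F test (limma) over the 9 within-pool differences. Of the 46 clones 0 passed, beside 0% of all clones, and the lowest adjusted p among the members was 0.215, against 0.0774 among all clones. At an unadjusted p under 0.05 there were 10 members (21.7%), beside 29 of the other bright clones (16.6%) and 148 of all clones (7.21%), and the selection favours opposite changes. The lowest unadjusted p of a member was 0.000636 by limma, that of lcao0049f12, whose PCR minus aRNA difference averaged 4.06 log2 units in 4-cell, at least 1.93 in morula and 2.72 in blastocyst pools. With 2 of its 3 morula PCR arrays at the highest intensity recorded, the morula value is a lower bound, and this p rests on it. On simulated data (2052 clones) 0% of the changes of 1 log2 unit and 75.2% of those of 2 log2 units were recovered, so dependence of the smaller size was not detectable with these pools. With array weights 4 members passed. No share of all clones is given for that setting, so nothing is read from this count.

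The scale of the score bears on what steady means for these clones. The score gives every array the same SD, while the SD of the log2 intensities over clones ran from 0.948 on a 4-cell array to 1.90 on a blastocyst array. When intensities were only divided by the array's clone median, the median of the 46 clones was 2.60 (4-cell), 3.04 (morula) and 3.31 (blastocyst) log2 units. On that scale 43 clones were lowest in 4-cell embryos, and 32 were highest in blastocysts and 13 in morulae. The counts were 663, 635 and 562 among all 2052 clones, and 104, 93 and 38 among the 175 other bright clones. Blastocyst minus 4-cell was positive in 44 of the 46, with a median of 0.94 and a range from -0.02 to 2.19, and the 2 exceptions were lcap0017a02 and lcap0003e09. Over all clones 44.2% were positive, and 65.7% of the other bright clones. A score unit stood for 0.954 to 1.45 log2 units on 4-cell arrays and for 1.30 to 1.90 on blastocyst arrays. An even positive score thus turns into a larger log2 value in blastocysts, so this rise follows in large part from the selection. The stage means used for selection come from the same arrays, and these are descriptions without a test. The median of these clones was lower in blastocysts than in 4-cell embryos on the score and higher on this scale.

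**Figure D5:**
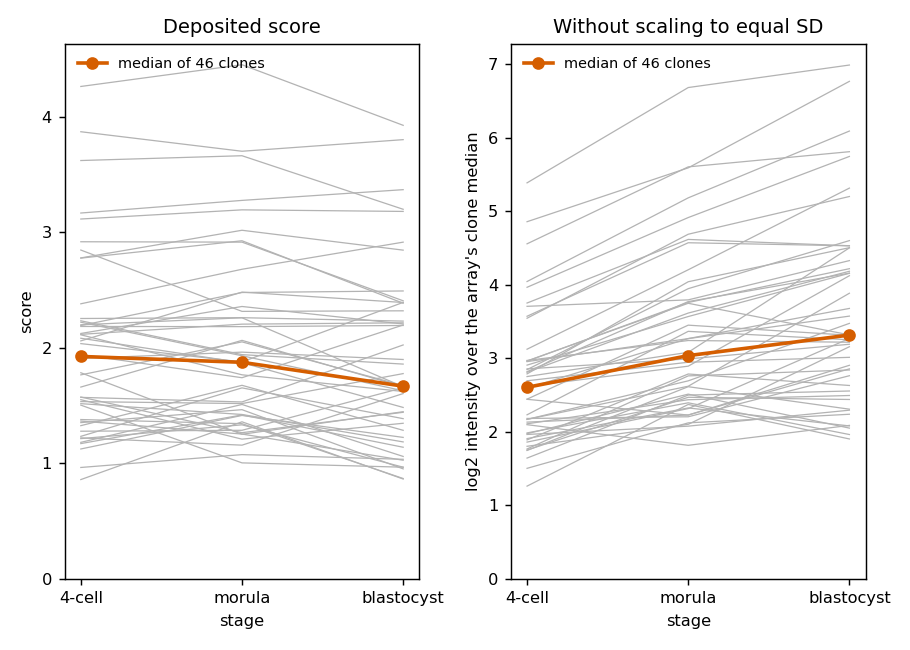
Grey lines are the 46 clones and the orange line their median over the 3 stages (horizontal), as the deposited score (left) and as log2 intensity over the array's clone median (right). The median goes from 1.93 to 1.67 on the left and from 2.60 to 3.31 on the right.

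Ranks within an array do not depend on either scale. Of the 46 clones, 10 stood in the top 10% of clones (rank 205 or better) on all 18 arrays, 27 in the top 20% (rank 410) and 43 in the top 50% (rank 1026). Over all clones 31, 80 and 283 did so. At the other end, the lowest rank of a member on any array was 1487. Clone lcao0035h06, the lowest member by level, fell to rank 1385 and reached rank 38. The members were above the XWAB level on a median of 16 of 18 arrays, and 15 (32.6%) on all 18, as against 45 of all clones (2.19%). The count was 17 on all 9 aRNA arrays and 33 on all 9 PCR arrays, beside 57 and 86 of all 2052 clones and 40 and 52 of the 175 other bright clones. The bright level itself follows from the selection.

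The members were unevenly spread over the clone names. The prefix lcao was carried by 37 of the 46 (80.4%), lcap by 8 (17.4%) and lcal by 1, while lcao and lcap each made up 49.6% of all clones. Among the other bright clones 62.3% were lcao. Of the 57 name stems (the prefix with its 4 digits), 29 held a member, and lcao0049 held 8 among its 31 clones (25.8%), 24 of which met the level threshold (77.4%). The labels and files do not say what prefixes and stems mean. By prefix, PCR arrays were the higher ones for 21 lcao, 4 lcap and the single lcal clone and the lower ones for 4 lcao and 2 lcap clones.

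Position on the filter was looked at because radioactive signal can reach neighbouring spots. All 46 clones were spotted once. A neighbouring spot at least 4 times as bright lay beside 12 of them (26.1%), against 64.5% of all clones and 9.14% of the other bright clones. This ratio is taken over the clone's own intensity, so clones selected as bright tend to have low ratios. The named clones among the 12 were lcap0006d03 (ratio 12.0), lcao0035h06 (10.7), lcao0045c11 (8.99) and lcao0048g08 (8.35). Another member lay next to 17 (37.0%), against 13.6% of all clones and 23.4% of the other bright clones. The part of neighbouring signal in the members' values was not tested.

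Over the 46 clones, pool means correlated at r of 0.69 to 0.98 (median 0.84) within a stage and 0.73 to 0.91 (median 0.84) between stages, which the selection on even stage means favours. Over all 2052 clones the values were 0.83 to 0.98 (median 0.87) and 0.46 to 0.75 (median 0.65). These are correlations across clones, which share the arrays and are not independent replicates. The blastocyst pool taken at 96 h differed from the mean of the pools taken at 90 h by a median of -0.04 score units over the members, from -0.74 to 0.53, with 20 of the 46 higher. The median size of this difference was 0.148, against 0.143 for all clones, and with 1 pool at 96 h it has no replicate check.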

How the data were processed

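Per the file headers, AGScan quantified the spots at 1 constant diameter for the authors, and the deposited tables hold 1 linear intensity per spot without a background. The deposited series table gives a score for each name, with 0 columns of other samples, and how it was made is not stated. Amplification is per the labels' protocols.

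Intensities were corrected with limma's normexp (offset 50) and taken to log2. Quantile normalization ran over all 18 arrays for PCR against aRNA and the interaction (9 differences within pools) and within each amplification for stages (9 pool means). Fits used limma 3.58.1 (lmFit, eBayes; R 4.3.3) over all 2052 clones, with Benjamini-Hochberg adjustment at 0.05, and SE come from them. On simulated data (200 of 2052 clones changed), PCR against aRNA recovered 89.9% at a change of 1 and 99.7% at 2 (log2), and stages 51.4% and 97.9%.

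The members and lists were chosen with earlier results of these data known. Named clones are the 4 brightest, the extremes of range and of pool SD, those at both thresholds, and the 2 largest called differences in each direction between amplifications; both exceptions in the comparison of scales were chosen after their values were seen. Gene and marker lists could not be used, since clones have no gene names. Alternatives changed the normalization, background correction, values, filter, weights, block and pools.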

Additional observations from a re-analysis of the deposited data

How the results depend on the processing

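The counts of members higher on PCR arrays stayed within 1.5 times the reported 26 in every alternative run (24 to 27 leaving out each pool in turn, 18 with each amplification normalized by itself). Members lower on PCR arrays numbered 12 with each amplification normalized by itself and 3 without the pools of array code 5. With array weights, 4 members had a stage difference that depended on amplification, and 0 in the other settings run. No share of all clones is given beside the 4, so nothing is read from this count. The number differing among stages was 2 under median centring, 3 on the series table's scores, 4 to 13 leaving out each pool in turn (4 without blastocyst pool 1, 5 without blastocyst pool 2 or 3, 13 without morula pool 2), and 14, 0 and 4 without the pools of array codes 4, 5 and 6. With a block on the replicate number it was 6. The replicate numbers do not pair the pools, since same-numbered pools correlated at -0.20 to 0.20, 3 of 9 pairs over 0.1. These counts of stage differences come without a share of all clones, so nothing is read from them. The selection rule gave 26 clones on the aRNA arrays alone (22 of them members), 48 on the PCR arrays alone (27 members), 23 at a range threshold of 0.4, 27 on code 4 alone, and 40 to 48 leaving out each pool (36 to 43 members). On log2 intensity over the array median it gave 57 clones, of which 17 were members. The pool SD of the members was 1.21 times that of all clones on scores and 1.36 times on log2 values. Of 266 recalculations for the 14 named clones, 254 kept direction and side of the threshold, 6 lost the call, 3 gained it and 0 called values changed sign. The sign changed for 3 uncalled values: lcao0021g05 (from 0.31 to -0.31) and lcao0045c11 (from 0.39 to -0.26) with each amplification normalized by itself, and lcap0006d03 (from -0.22 to 0.03) without 4-cell pool 1. Clone lcao0040f02 lost the call with each amplification by itself and without codes 5 or 6, and lcao0043f08 without codes 4 or 5. Clone lcao0042c12 lost the call when the aRNA and PCR arrays of a pool were not paired in the fit. Leaving out array codes and the selection on 1 code or on log2 values were chosen after seeing the data. The cause of these moves was not tested, though fewer samples entered in some settings by construction.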

Other observations

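Both members with the largest falls on PCR arrays had their lowest aRNA scores in the same pools. Clone lcao0040b06 scored 3.53, 2.85 and 1.27 on aRNA arrays of 4-cell pools 1 to 3, and 2.70, 2.75 and 1.24 in the blastocyst pools; lcao0043f08 scored 2.84, 3.14 and -0.04, and then 2.12, 1.92 and 0.08. These pools carry array codes 6 (4-cell pool 3) and 4 (blastocyst pool 3). In the morula pools the scores were 2.59, 3.54 and 2.51 and then 2.03, 2.58 and 1.38. These values were singled out after they were seen, and no test was made.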
